A study of Homo sapiens with 8 samples.

Results

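Among the ETS1 binding regions of DU145 cells, 285 of 8183 also held peaks of at least 2 of 3 other ETS factors, GABPA, ELF1 and ELK4. They are called multi-factor regions here. Members were chosen by the overlap of the deposited peak lists. A member is an interval of the first DU145 ETS1 list that shares at least 1 bp with a peak of the second DU145 ETS1 list and with peaks of 2 or 3 of the other factors' lists. The overlaps with these lists are therefore a description and carry no test. Distances between their peaks come from the same lists, so the tests on distances below are no independent support. Of the other ETS1 regions present in both ETS1 lists, 2204 held exactly 1 of the 3 factors and 5694 held none.

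The lists come from chromatin immunoprecipitation followed by sequencing (ChIP-seq), in which an antibody recovers the DNA bound by a protein. ETS1, GABPA, ELF1, ELK4 and JUND were each immunoprecipitated from DU145, an established human prostate cancer line of epithelial type, and ETS1 also from PANC1, an established pancreatic cancer line. The labels name no treatment and no genetic change. Their culture note describes DU145 alone, in DMEM with serum and antibiotics and with puromycin where cells were selected, without saying for which samples, and it is repeated for PANC1. The antibody against ETS1 had the same catalogue number in both lines but came from different lots. There was 1 sample per factor and line, so every share, interval and p-value below describes the peaks of these lists, and the variation between cultures is unknown.

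ETS proteins share a winged helix-turn-helix domain that contacts a GGAA core in DNA, so different members of the family can occupy the same site. ETS1 is a target of ERK phosphorylation and can bind next to AP-1, the dimer family to which JUND belongs. GABPA is the DNA-binding subunit of GABP, which works with a beta subunit that brings the activation domain and is known from promoters of housekeeping and mitochondrial genes. ELF1 belongs to a separate branch of the family. ELK4 is a ternary complex factor, a protein that joins serum response factor at DNA and is activated by ERK.

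The lists differed in size and shape. The first ETS1 list held 9984 intervals with a median width of 1173 bp. The second held 9306 windows with a median width of 497 bp. GABPA had 2478 windows, ELK4 had 337 and ELF1 had 256, with medians between 495 and 497 bp. The JUND list held 1308 intervals (median 696.5 bp) and the PANC1 ETS1 list 409 windows (median 497 bp). The files carry no score and no read count, so depth is unknown and the strength of a peak could not be compared. Positions are hg19, and since no annotation or sequence of that build was used here, regions are named by position only, without genes.

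GABPA was the common partner. The pair GABPA with ELK4 made up 147 members (51.6%, 95% Clopper-Pearson interval 45.6 to 57.5%). GABPA with ELF1 made up 112 (39.3%, 33.6 to 45.2%). All 3 factors met at 22 (7.72%, 4.90 to 11.5%), and ELF1 with ELK4 without GABPA at 4 (1.40%, 0.384 to 3.55%). These intervals, like all those below, cover counting error only. GABPA has by far the longest of the 3 lists.

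Multi-factor regions took up very different parts of the 3 lists. They held 138 of the 256 ELF1 peaks (53.9%, 47.6 to 60.1%) and 173 of the 337 ELK4 peaks (51.3%, 45.9 to 56.8%), but 281 of the 2478 GABPA peaks (11.3%, 10.1 to 12.7%). So more ELF1 and ELK4 peaks lay in multi-factor regions than at ETS1 regions of their own, where 90 ELF1 and 94 ELK4 peaks were found. For GABPA it was the other way round, with 2026 peaks at ETS1 regions without ELF1 or ELK4. No member held more than 1 peak of any of the 3 factors, and no peak was counted in more than 1 member. Each GABPA peak in a multi-factor region therefore needs its own ELF1 or ELK4 peak. With 256 and 337 such peaks, most GABPA peaks could not lie there, so list size limits the GABPA share.

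The rule left few doubtful cases. The factor that decided membership had its whole window inside the ETS1 interval in 281 of 285 members. The 3 smallest deciding overlaps were 294 bp of GABPA at chr1:214601103-214601630, 318 bp of GABPA at chr19:56165011-56167080 and 370 bp of ELF1 at chr9:69065036-69065689. Outside the rule, none of the 2204 regions with exactly 1 factor had a peak of another within 1000 bp of its interval, and 9 had one within 5000 bp. The nearest of these were an ELK4 peak 1624 bp from chr12:56614986-56616397, a GABPA peak 1772 bp from chr19:39902229-39903511 and an ELK4 peak 3532 bp from chr11:62553768-62555675. Measured towards it, each distance ends inside a neighbouring multi-factor region that holds the same factor. These neighbours are chr12:56617750-56618640, chr19:39896880-39901140 and chr11:62558728-62560045. A further 3 intervals of the first ETS1 list met 2 or more factors but had no peak in the second ETS1 list, and are not members.

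In most multi-factor regions the windows of the factors overlapped. The windows of all factors present shared bases in 274 of 285 members (96.1%), and in 266 (93.3%, 89.8 to 95.9%) the window of the second ETS1 list shared them too. In those 266 the median stretch common to all windows was 376.5 bp, of windows about 500 bp long. The rule asks only for overlap with the wider interval of the first ETS1 list, whose median width among members was 1560 bp. It did not require shared bases, but such an interval leaves windows of this length limited room. Many would therefore share bases at unrelated positions too, and that share was not computed. Distances below are between window centres, and no source used here says whether a centre is the summit of its peak.

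GABPA and ELK4 centres had a median distance of 66.0 bp over the 169 members that hold both (quartiles 24.0 and 157.0 bp). They lay within 50 bp of each other in 73 members (43.2%) and within 200 bp in 141 (83.4%). GABPA and ELF1 centres had a median distance of 68.8 bp over 134 members (28.1 and 126.9 bp), with 120 (89.6%) within 200 bp. ELF1 and ELK4, with 26 members, had a median of 83.0 bp (36.8 and 182.2 bp), with 20 (76.9%) within 200 bp. The middle ranges of the 3 pairs overlap widely.

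The distances to ETS1 were of the same size. In multi-factor regions the median distance from the centre of the second-list ETS1 window was 77.0 bp for GABPA, 74.2 bp for ELF1 and 79.5 bp for ELK4. GABPA and ELK4 lay on the same side of the ETS1 centre in 120 of the 166 regions where neither fell on it (72.3%), and GABPA and ELF1 in 93 of 133 (69.9%). ELF1 and ELK4 did so in 13 of 25 (52%). Where both factors were more than 50 bp from the ETS1 centre, the counts were 70 of 83 (84.3%) for GABPA and ELK4, 45 of 54 (83.3%) for GABPA and ELF1 and 10 of 14 (71.4%) for ELF1 and ELK4. The factor pair was closer together than either was to ETS1 in 68 of 169 regions for GABPA and ELK4, in 52 of 134 for GABPA and ELF1 and in 8 of 26 for ELF1 and ELK4. These counts are a description and were not tested. An even split is no baseline for them, since both offsets of a pair are taken from the same ETS1 centre. Leaving out centres near ETS1 can itself raise the share on the same side. No share for unrelated positions was computed.

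ELK4 lay nearer to ETS1 in multi-factor regions than where it was the only one of the 3 factors. Its median distance was 79.5 bp (quartiles 29.0 and 183.0 bp) in 173 multi-factor regions and 135.0 bp (49.0 and 289.5 bp) in 93 regions with ELK4 alone. It was within 200 bp of ETS1 in 137 of 173 multi-factor regions (79.2%, 72.4 to 85%), against 54 of 93 regions with ELK4 alone (58.1%, 47.4 to 68.2%). The odds ratio was 2.74 (95% interval 1.52 to 4.95, p = 0.000348 by a two-sided Fisher's exact test, adjusted p = 0.00453 over 13 tests by the Benjamini-Hochberg method). This comparison was chosen after seeing the data. It uses peaks of the same ELK4 and ETS1 lists as the rule, so its p-values only describe these lists. The call was lost with all peaks set to 500 bp around their centres (2.44, adjusted exact p = 0.121) and among the earlier lines of the lists (1.42, adjusted exact p = 1), and over all alternatives with an adjusted p it ranged from 0.00453 to 1. ELK4 centres more than 500 bp from ETS1 were found in 11 of 173 multi-factor regions (6.36%, 3.22 to 11.1%) and in 14 of 93 with ELK4 alone (15.1%, 8.48 to 24.0%).

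No such difference was detected for GABPA or ELF1. GABPA was within 200 bp of ETS1 in 84.0% of multi-factor regions (79.2 to 88.1%, 236 of 281) and in 85.1% of regions with GABPA alone (83.4 to 86.6%, 1719 of 2021). The odds ratio was 0.921 (0.651 to 1.33, Fisher's exact adjusted p = 0.776). ELF1 was within it in 86.2% of multi-factor regions (79.3 to 91.5%, 119 of 138) and in 81.1% of regions with ELF1 alone (71.5 to 88.6%, 73 of 90). Its odds ratio was 1.46 (0.664 to 3.17, exact adjusted p = 0.460), an interval that also holds the ELK4 value. Whether the factors differ from each other in this respect was not tested.

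**Figure D1:**
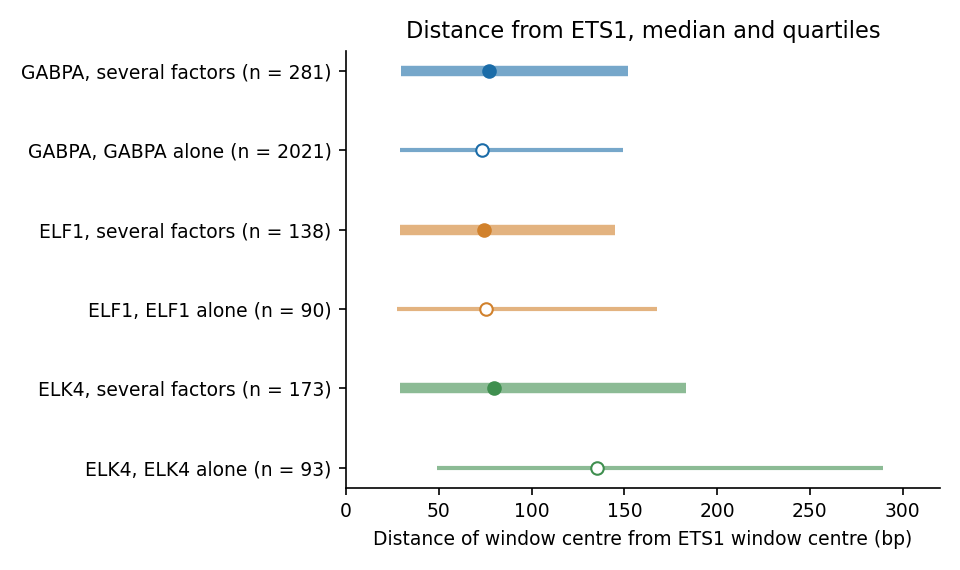
Distance between the window centre of each factor and that of ETS1 (second list), in bp on the horizontal axis, with the median as a point and the quartiles as a bar. Filled points and thick bars are multi-factor regions and open points and thin bars are regions with the named factor alone; the ELK4 medians are 79.5 and 135.0 bp, while those of GABPA (77.0 and 73.5 bp) and ELF1 (74.2 and 75.2 bp) lie close together.

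The 22 regions with all 3 factors show the arrangement one by one. The span from the outermost to the outermost factor centre had a median of 95.5 bp (quartiles 56.2 and 201.4 bp, range 9.0 to 634.0 bp) and was at most 100 bp in 12 of them. In 11 of the 22 all 3 factors lay on 1 side of the ETS1 centre. Offsets below are from the ETS1 centre, negative towards lower coordinates, and line numbers are those of the second ETS1 list.

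In the tightest, at chr1:169862276-169864114 (line 132), GABPA was at -52.0 bp, ELF1 at -54.5 bp and ELK4 at -61.0 bp, a span of 9.0 bp. At chr17:13972133-13973382 (line 3405) the span was 32.0 bp, between -90.5 bp for ELK4 and -58.5 bp for ELF1. At chrX:77359067-77360318 (line 2752) it was 35.0 bp, with GABPA at -99.0, ELF1 at -97.5 and ELK4 at -132.5 bp. In these 3 regions all factors lay on the same side of the ETS1 centre, by 52.0 bp or more. The same holds, farther out, for chr2:9695019-9696777 (line 1474), where the 3 centres fell between -271.5 and -226.0 bp. It also holds for chr18:32923148-32925012 (line 70), the only one of these 5 on the side of higher coordinates, with centres between 168.0 and 219.5 bp.

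A further 7 had spans of 42.0 to 97.5 bp. They were chr18:3261233-3262880 (line 1283), chr3:196668557-196670287 (629), chr6:30034165-30035495 (2296), chr12:6771643-6773054 (167), chr22:36924624-36926156 (1238), chr16:89306844-89308506 (1118) and chr14:69864150-69866125 (75). Next to chr12:6771643-6773054, at a gap of 24474 bp, lies another of the 22, chr12:6797529-6799439 (line 226), where ELF1 coincided with ETS1 (0.0 bp), GABPA was at 59.5 bp and ELK4 at -46.0 bp. This is the single pair among the 8 closest pairs of multi-factor regions in which both hold all 3 factors.

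In 10 of the 22 regions 1 factor lay across the ETS1 centre from the others, ELF1 in 6 of them, ELK4 in 3 and GABPA in 1. ELK4 did so at chr20:44419996-44421310 (line 3059), at 103.5 bp against -144.0 bp for GABPA and -172.0 bp for ELF1, and at chr19:8454346-8455919 (line 4813), at -161.0 bp against 71.5 and 44.5 bp. ELF1 was on the other side of the ETS1 centre from GABPA and ELK4 at chr9:102860161-102862354 (line 22), with 51.0 bp, and at chr22:19465970-19467913 (line 77), with 99.0 bp. GABPA was across from the others at chr15:67546578-67547581 (line 4264), at -36.0 bp against 160.5 bp for ELF1 and 144.5 bp for ELK4.

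The remaining regions with all 3 had spans of over 100 bp as well. They were 157.0 bp at chr5:140043670-140045050 (line 2916) and 190.0 bp at chr17:6543599-6545106 (line 1067). At chr14:50099689-50102615 (line 215) it was 340.5 bp, from -166.0 bp for GABPA to -506.5 bp for ELK4. The widest span was 634.0 bp at chr1:151253408-151255734 (line 1143), with ELF1 at 177.5 bp and ELK4 at -456.5 bp. In this last region no base was common to the windows of the 3 factors, and it is the only one of the 22 of which that is true.

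**Figure D2:**
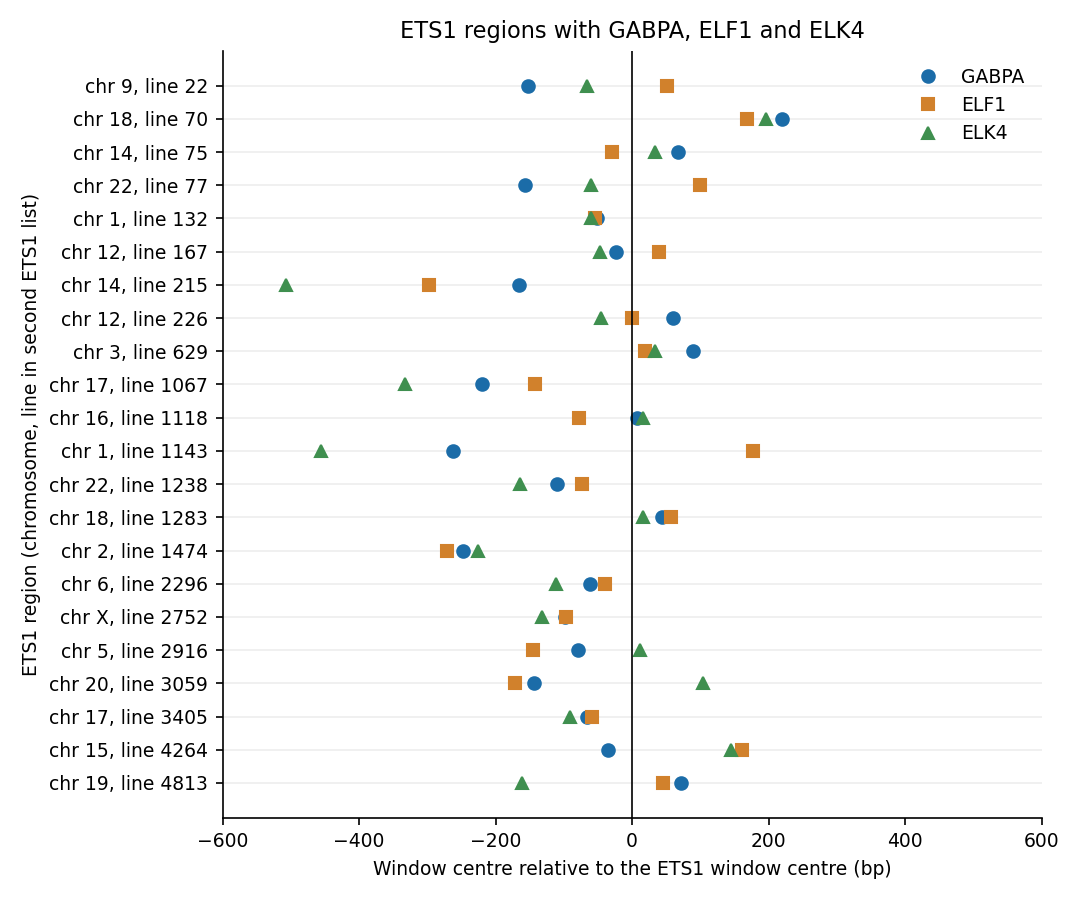
The 22 ETS1 regions with GABPA (circles), ELF1 (squares) and ELK4 (triangles), 1 region per row, ordered by their line in the second ETS1 list from the earliest at the top. The horizontal axis is the position of each window centre relative to the ETS1 window centre in bp, towards higher coordinates on the right; in 12 rows the 3 symbols fall within 100 bp, and the widest row spans 634.0 bp.

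Pairs of factors could lie far from the ETS1 centre and still close to each other. In the 5 widest regions with GABPA and ELK4 this occurred at chr1:154972420-154977037 (4618 bp wide), with GABPA at 2833.5 bp and ELK4 at 2756.5 bp. It occurred at chr19:39896880-39901140 (4261 bp), at 2606.0 and 2841.0 bp, and at chr7:5566083-5571178 (5096 bp), at -660.5 and -698.5 bp. At the widest member of all, chr19:13260202-13266660 (6459 bp), GABPA at -2809.5 bp and ELK4 at -1201.5 bp were apart from each other as well as from ETS1. The fifth, chr19:6736861-6741054 (4194 bp), had them at 126.0 and -176.5 bp.

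The widest regions with GABPA and ELF1 were just as mixed. The interval at chr19:1168241-1174616 (6376 bp) held 2 windows of the second ETS1 list. From the one nearest its midpoint GABPA was at 4817.5 bp, ELF1 at 4765.5 bp and a JUND peak at -61.0 bp, while from the other GABPA was at 787.5 bp and ELF1 at 735.5 bp. At chr17:79824970-79830280 (5311 bp) both were close, at 43.0 and 27.5 bp, and a JUND peak was 3272.0 bp away. At chr11:62606285-62610185 (3901 bp) ELF1 was at -14.0 bp and GABPA at -1958.0 bp. At chr11:64036320-64039693 (3374 bp) and chr17:48226832-48229911 (3080 bp) the factors were at -78.5 and -136.0 bp and at 400.5 and 628.0 bp, GABPA before ELF1. In wide intervals, then, membership did not always mean shared bases.

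The 4 regions with ELF1 and ELK4 but no GABPA split evenly. At chr10:99496462-99497480 the factors were at 20.0 and -2.0 bp, and at chr12:51632064-51633286 at 53.0 and -27.5 bp, ELF1 before ELK4. At chr12:56121464-56123721 and chr16:88877344-88879311 ELF1 was near ETS1, at -87.5 and -2.5 bp, and ELK4 was at -879.5 and 612.5 bp. In the last 2 the windows of the factors shared no base.

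Multi-factor regions were among the wider ETS1 intervals and the earlier lines of the ETS1 lists. Their median width was 1560 bp (quartiles 1316 and 1940 bp), against 1340 bp (1134 and 1616 bp) with exactly 1 factor and 1208 bp (938 and 1565 bp) with none. Their median line in the second ETS1 list was 1508, against 2411 with exactly 1 factor and 5005.5 with none. With the 8183 ETS1 regions in 5 equal groups by this line order, the share of multi-factor regions was 9.16% (7.81 to 10.7%), 4.58%, 2.5%, 0.917% and 0.244% (0.0667 to 0.625%) from the earliest to the latest group. By width it was 0.611% (0.293 to 1.12%), 1.28%, 3.67%, 5.26% and 6.60% (5.45 to 7.92%) from the narrowest to the widest. A wide interval can meet another list more easily, and no source used here says by what the lines were ordered.

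Regions with exactly 1 factor also had a higher share among early lines, at 45.8% in the earliest group and 7.21% in the latest. Of the ETS1 regions with any of the 3 factors, 16.7% were multi-factor in the earliest group, and 10.4%, 8.42%, 5.81% and 3.28% in the following ones. All but 3 of the 22 regions with all 3 factors lay in the first 2 groups, 15 of them in the earliest.

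**Figure D3:**
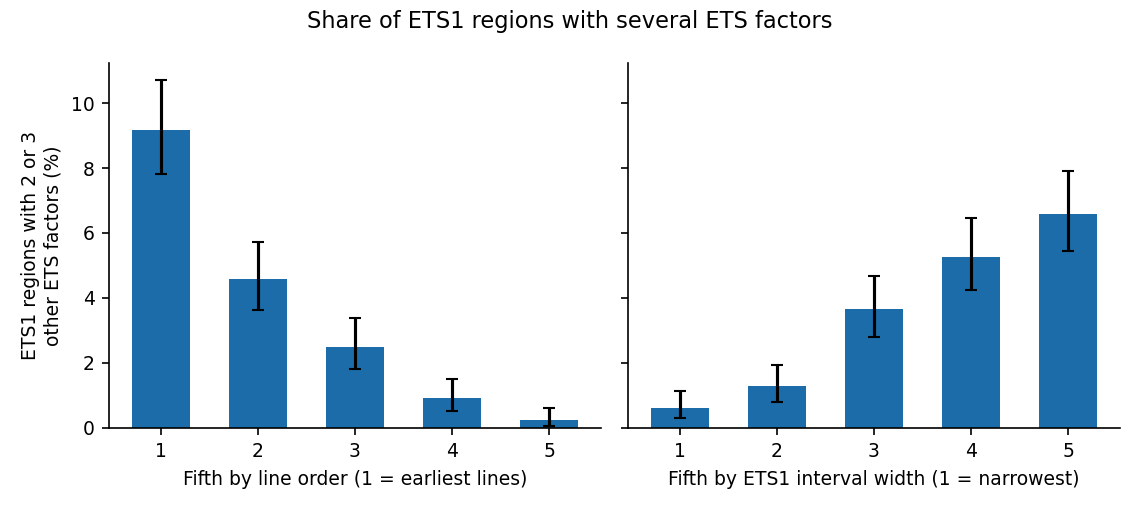
Share of the 8183 ETS1 regions that are multi-factor regions, in percent, in 5 equal groups by line order in the second ETS1 list (left) and by width of the first-list interval (right). Bars are shares and error bars are 95% Clopper-Pearson intervals; the share is 9.16% in the earliest and 0.244% in the latest group, and 0.611% in the narrowest and 6.60% in the widest.

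The earliest multi-factor regions in the second ETS1 list were mostly GABPA with ELF1. At line 4, chr11:62606285-62610185 also held a JUND peak that is line 1 of the JUND list. The next were chr14:77923077-77925249 (line 6, GABPA and ELK4) and chr12:133656014-133658265 (line 8, GABPA and ELF1). Then came chr1:151137512-151139285 (line 12) and chr14:35590370-35592605 (line 13), both with GABPA and ELF1, chr9:102860161-102862354 with all 3 factors (line 22), and chr22:20860808-20863134 (line 32), again with GABPA and ELF1. The last of the 10 were chr1:153962404-153964187 (line 37, GABPA and ELK4), chr5:40833875-40836225 (line 39, GABPA and ELF1) and chr14:21978415-21980288 (line 53, GABPA and ELK4). The GABPA peak of the region at chr5 is line 1 of the GABPA list.

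The share in multi-factor regions also varied along the factors' own lists. Of GABPA peaks, 16.1% (13.0 to 19.7%) of the earliest of 5 equal groups lay in multi-factor regions and 10.3% (7.77 to 13.3%) of the latest. Of ELK4 peaks, 30.9% (20.2 to 43.3%) of the earliest group did, then 34 of 68 peaks, 53.7%, 68.7% (56.2 to 79.4%) and 53.7% (41.1 to 66.0%). Of ELF1 peaks, the shares were 48.1% (34.0 to 62.4%), 49.0%, 51.0%, 56.9% and 64.7% (50.1 to 77.6%). Membership is set by the rule, so these shares are a description, and neither a trend nor a difference between groups was tested. Of ELK4 peaks, 67.6% of the earliest ELK4 group lay in any ETS1 region and 91.0% of the fourth did. Among those, 45.7% of the earliest group and 75.4% of the fourth were in multi-factor regions.

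**Figure D4:**
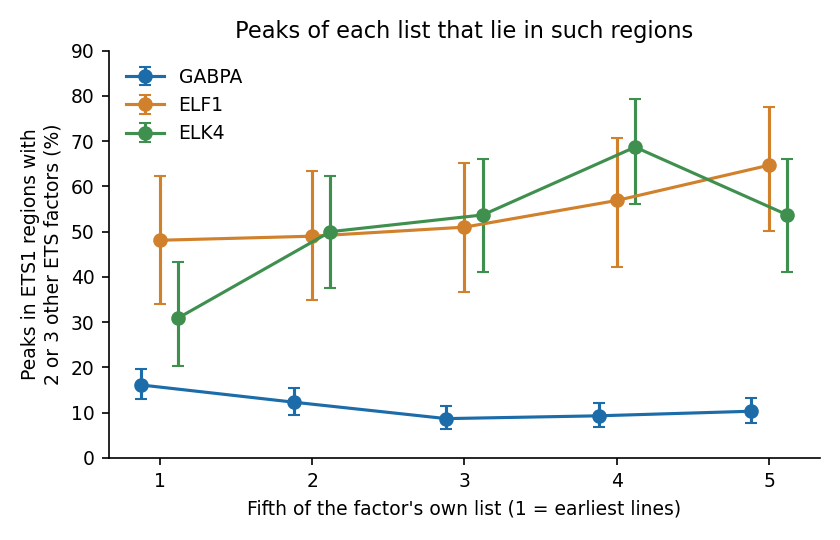
Share of the peaks of GABPA, ELF1 and ELK4 that lie in multi-factor regions, in percent, in 5 equal groups by line order of each factor's own list (1 holds the earliest lines). Error bars are 95% Clopper-Pearson intervals; ELK4 runs between 30.9% and 68.7%, ELF1 between 48.1% and 64.7% and GABPA between 8.67% and 16.1%.

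JUND, which was not used to choose the regions, was found at 20 of the 285 multi-factor regions (7.02%, 4.34 to 10.6%). The background over all 8183 ETS1 regions was 4.89%. With exactly 1 other ETS factor it was 73 of 2204 (3.31%, 2.61 to 4.15%), and the odds ratio of multi-factor against these regions was 2.20 (1.25 to 3.72, p = 0.00417 by a two-sided Fisher's exact test, adjusted p = 0.0181). With no other ETS factor it was 307 of 5694 (5.39%, 4.82 to 6.01%), and no difference was detected (odds ratio 1.32, 0.784 to 2.12, exact adjusted p = 0.332). The regions with exactly 1 factor were mostly GABPA alone (2021), with 93 of ELK4 alone, whereas 173 of the 285 multi-factor regions held ELK4. The classes of the first comparison therefore differ in the mix of factors as well as in their number.

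The first of these differences was smaller in comparisons matched on width. Within 5 equal groups of ETS1 regions by width the odds ratio was 1.5 (Mantel-Haenszel, 0.885 to 2.55), an interval that holds 1. Within groups by line order it was 1.92 (1.14 to 3.21). These values within groups have no p-value and were not adjusted for the number of tests. The call was lost with 500 bp intervals (1.66), with the windows of the second ETS1 list as the regions (1.69) and among the earlier lines (1.81). With peak centres within 200 bp of ETS1 the direction turned (0.440, 0.0511 to 1.72). The adjusted exact p ranged from 0.0155 to 1 over the alternatives that give one.

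Outside multi-factor regions the JUND share was highest with ELK4. With GABPA alone it was 2.77% (2.10 to 3.58%, 56 of 2021), with ELF1 alone 2.22% (0.270 to 7.80%, 2 of 90) and with ELK4 alone 16.1% (9.32 to 25.2%, 15 of 93). In multi-factor regions it was 6.80% (3.31 to 12.2%, 10 of 147) for GABPA with ELK4, 6.25% (2.55 to 12.5%, 7 of 112) for GABPA with ELF1 and 9.09% (1.12 to 29.2%, 2 of 22) for all 3, and 1 of the 4 regions with ELF1 and ELK4 had JUND. The intervals of these combinations overlap, and a difference between them was not tested.

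Comparisons matched on the factor, chosen after seeing the data, pointed in different directions. Multi-factor regions with GABPA had JUND in 6.76% (19 of 281), against 2.77% with GABPA alone (odds ratio 2.54, 1.40 to 4.43, Fisher's exact adjusted p = 0.0111). Multi-factor regions with ELK4 had it in 7.51% (4.06 to 12.5%, 13 of 173), against 16.1% with ELK4 alone (0.424, 0.176 to 1.01), which was not past the threshold after adjustment (exact p = 0.0363, adjusted p = 0.0786). Within groups by line order the ELK4 value was 0.278 (0.115 to 0.675) and by width 0.351 (0.152 to 0.809), both with intervals below 1. The GABPA value was 1.71 (0.980 to 2.97) within groups by width and 1.71 (adjusted exact p = 0.623) with 500 bp intervals. Its call was also lost with the second ETS1 list as the regions (2.03, adjusted exact p = 0.241) and among the earlier lines (2.41, adjusted exact p = 1), and with peak centres within 200 bp of ETS1 its direction turned (0.550, adjusted exact p = 0.95). For ELF1 it was 7.25% (10 of 138) in multi-factor regions and 2.22% (2 of 90) alone (3.42, 0.704 to 32.9, exact adjusted p = 0.214). The difference between the GABPA and ELK4 odds ratios was not tested, and both use the regions that hold GABPA and ELK4.

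**Figure D5:**
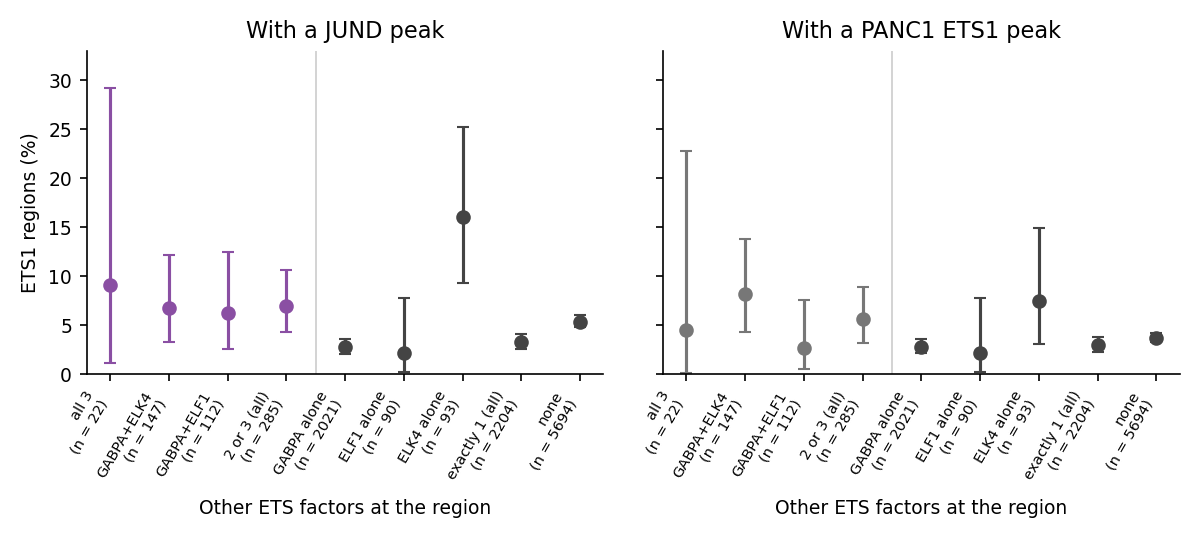
Share of ETS1 regions with a JUND peak (left panel) and with a PANC1 ETS1 peak (right panel), in percent, by the other ETS factors at the region, with multi-factor regions to the left of the grey line and regions with 1 or no factor to the right. Error bars are 95% Clopper-Pearson intervals; the 4 regions with ELF1 and ELK4 alone are not drawn, and the highest point on the left panel is ELK4 alone at 16.1%.

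Distances of JUND from ETS1 had wide and overlapping middle ranges. Its centre was a median of 165.8 bp (quartiles 95.9 and 388.9 bp) from the ETS1 centre in the 20 multi-factor regions, 135.0 bp in the 73 with exactly 1 factor and 176.5 bp in the 307 with none. Its interval shared bases with the ETS1 window in 17 of the 20 and with a window of GABPA, ELF1 or ELK4 in 15. At chrX:77359067-77360318, with all 3 factors, JUND was at -52.5 bp, between the ETS1 centre and the other factors. That region is line 3 of both the JUND and the ELF1 list and line 21 of the ELK4 list, but line 2752 of the second ETS1 list and line 1471 of the GABPA list.

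The earliest regions with JUND and no PANC1 peak were chr11:64036320-64039693 (line 54), chr18:33077006-33078432 (line 501), chr17:4870295-4873224 (line 739), chr22:18120610-18122391 (line 853) and chr19:1274770-1276662 (line 1178). JUND was at -668.5 bp in the first of them and at 13.0 bp in the second. It was at -354.0, 208.0 and -159.0 bp in the others. In all 5 the windows of GABPA, its partner and ETS1 shared 202 bp or more.

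ETS1 peaks of PANC1 cells were found at 16 multi-factor regions (5.61%, 3.24 to 8.96%), where the background over all ETS1 regions was 3.61%. The share was 2.99% (2.32 to 3.79%, 66 of 2204) with exactly 1 factor and 3.74% (3.26 to 4.27%, 213 of 5694) with none. Neither difference passed the threshold, with odds ratios of 1.93 (1.03 to 3.42, Fisher's exact p = 0.0319, adjusted p = 0.0786) and 1.53 (0.847 to 2.59, exact adjusted p = 0.209). Without chromosome 6 the first was 2.03 (1.08 to 3.62) and past it (exact adjusted p = 0.0477). Within groups by line order it was 1.38 (0.780 to 2.45) and within groups by width 1.25 (0.697 to 2.23).

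Of the 16 regions with a PANC1 peak, 12 held GABPA and ELK4 (8.16% of that pair, 4.29 to 13.8%), 3 GABPA and ELF1 (2.68%, 0.556 to 7.63%) and 1 all 3 factors. ELK4 alone had 7.53% (7 of 93) and GABPA alone 2.82% (57 of 2021), so the shares with ELK4 were close, at 7.51% (13 of 173) in multi-factor regions (odds ratio 0.998, 0.354 to 3.07, exact adjusted p = 1). That interval is wide and does not show that they are alike. Within groups by line order the value was 0.303 (0.1 to 0.919), with an interval below 1. For GABPA the odds ratio of multi-factor regions against GABPA alone was 2.08 (1.10 to 3.74, exact p = 0.0166, adjusted p = 0.0540), and it was past the threshold without chromosome 6 (2.22, adjusted exact p = 0.0290). For ELF1 it was 1.31 (0.184 to 14.8, exact adjusted p = 1), on 4 of 138 and 2 of 90 regions.

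Both JUND and PANC1 ETS1 were present at 6 multi-factor regions, JUND alone at 14 and PANC1 ETS1 alone at 10, and 255 held neither. Among the regions with exactly 1 factor the counts were 12, 61, 54 and 2077. The 6 were chr11:62606285-62610185 (GABPA and ELF1), chr14:50099689-50102615 (all 3) and 4 with GABPA and ELK4, at chr16:2202629-2206665, chr1:150550422-150553106, chr22:39915325-39917847 and chr7:100032788-100034679. In the first, the PANC1 ETS1 centre was at -11.0 bp and JUND at -108.5 bp. At chr7:100032788-100034679, GABPA and ELK4 coincided at 365.0 bp and PANC1 ETS1 was at 307.0 bp, while JUND was at 10.5 bp from the DU145 ETS1 centre. At chr1:150550422-150553106 the order along the chromosome was JUND (-702.0 bp), PANC1 ETS1 (-204.0 bp), DU145 ETS1, ELK4 (147.0 bp) and GABPA (256.5 bp), and the ELK4 peak is line 13 of its list.

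The earliest regions with a PANC1 peak and no JUND were chr11:808399-811088 (line 103), chr11:2420913-2423038 (line 136), chr19:39924856-39927743 (line 227), chr9:91932656-91934246 (line 278) and chr19:13260202-13266660 (line 542). The PANC1 centre was 333.0, -77.0, 9.0, 44.0 and 1.5 bp from the DU145 ETS1 centre, in that order. In the last region, the widest member, PANC1 ETS1 coincided with DU145 ETS1 and not with GABPA or ELK4, which lay more than 1000 bp away. Over the 16 regions the median distance between the ETS1 centres of the lines was 129.8 bp (quartiles 37.6 and 313.5 bp), and 109.5 bp over the 66 regions with exactly 1 factor.

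Multi-factor regions were spread over 23 chromosomes. Chromosome 19 held 33 (11.6%, 8.11 to 15.9%), against 9.75% of regions with exactly 1 factor and 7.46% of those with none. Chromosome 17 held 27 (9.47%, against 6.53 and 7.22%) and chromosome 1 held 22 (7.72%, against 10.1 and 10.4%). Chromosome 3 held 3 (1.05%, 0.218 to 3.05%, against 5.31 and 5.11%) and chromosome 4 held 1 (0.351%, against 2.63 and 2.99%). Chromosome 22 had the highest share of its own ETS1 regions in the set, 11 of 169 (6.51%). These shares were not tested.

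Few of them were close neighbours. Of the 262 gaps between neighbouring multi-factor regions on a chromosome, 3 were at most 10000 bp and 24 at most 100000 bp. With exactly 1 factor these counts were 69 and 572 of 2180 gaps, and with none 435 and 2375 of 5670. A class with fewer regions has wider gaps, and no difference was tested. The closest neighbours were chr9:35095581-35097064 and chr9:35102235-35103770, 5170 bp apart, the first with GABPA and ELF1 and the second with GABPA and ELK4. The next were chr17:79817727-79819705 with GABPA and ELK4 and chr17:79824970-79830280 with GABPA and ELF1, 5264 bp apart. The third were chr1:151031243-151032590 with GABPA and ELK4 and chr1:151041942-151044005 with GABPA and ELF1, 9351 bp apart. In each of these 3 neighbourhoods 1 region paired GABPA with ELF1 and the other paired it with ELK4. Some of the next closest pairs were mixed in this way too, while others held the same factors in both regions. No baseline for mixed pairs was computed.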

How the data were processed

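The authors deposited 7 peak lists from 6 immunoprecipitated samples, holding a chromosome, a start and an end per line and no score or count. Per the submitters' processing notes the build is hg19 and Bowtie2 2.0.6 was used, in a role they do not give. No source used here names the peak caller, its threshold or the use of the 2 inputs, which were not analysed here. Starts were read as 0-based and are printed 1-based.

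Overlaps were computed in Python 3.11.15 (SciPy 1.17.1, NumPy 2.4.6) and drawn with Matplotlib 3.10.9. Distances are from the second-list ETS1 window nearest the midpoint of the interval. The 10 shares of JUND and PANC1 peaks and the 3 distance shares were compared by Fisher's exact test with Benjamini-Hochberg adjustment over 13 tests, called at 0.05. Of these, 4 were planned and 9 chosen after the values were seen. The distances had been planned as a description without a test. Simulated peaks and counts served to test the code for overlaps and odds ratios. There were 8 alternatives, and for the 3 distance tests, after the values were seen, also the nearest of all ETS1 windows in an interval. Members, lists and tests were chosen with earlier results of these data known.

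Regions named are all those with all 3 factors, the 10 earliest by ETS1 line, the 5 widest of each pair, those with JUND and PANC1 peaks together, the 5 earliest with either alone, and those nearest the threshold. The closest neighbours were named after their values were seen. Tests on transcription start sites, motifs and gene groups, also planned, were not run, since no annotation or sequence of hg19 was used here.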

Additional observations from a re-analysis of the deposited data

How the results depend on the processing

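Values are odds ratios of multi-factor regions unless stated. Those within line order and width groups have an unadjusted interval and no p-value, so the threshold was not applied to them. The number of members was 78 among the earlier lines of every DU145 list and between 213 and 284 under the 5 other alternatives that change it. The median distances of GABPA from ELK4 and from ELF1 moved by less than their spread under all 6 alternatives. JUND against exactly 1 factor was 2.26 with 50% overlap and 2.27 without chromosome 6, both past the threshold. Within line order groups it was 1.92, with an unadjusted interval above 1. It was 1.66 with 500 bp intervals, 1.69 with the second ETS1 list as anchor, 1.81 among earlier lines, 1.5 within width groups and 0.440 with peak centres within 200 bp. In the same order of these 5 settings, JUND for GABPA was 1.71, 2.03, 2.41, 1.71 and 0.550, and JUND against no factor, never past the threshold, was 0.917, 0.953, 0.686, 0.942 and 0.298, and 0.830 within line order groups. JUND for ELF1 turned to 0.692 (second list), 0 (earlier lines) and 0.152 (centres). JUND for ELK4 had unadjusted intervals below 1 within line order (0.278) and width groups (0.351). PANC1 against exactly 1 factor passed the threshold without chromosome 6 (2.03) and turned with centres (0.936), as for GABPA (2.22 and 0.978). PANC1 against no factor turned with centres (0.756) and within line order (0.6) and width groups (0.982). For ELF1, PANC1 turned to 0.793 (centres), 0.996 (500 bp), 0.539 (earlier lines), 0.933 (line order) and 0.705 (width). For ELK4, PANC1 was 1.32 (earlier lines), 1.01 (without chromosome 6) and 0.303 within line order groups, the last with an unadjusted interval below 1. The share within 200 bp of ETS1 fell short of the threshold for ELK4 with 500 bp intervals (2.44) and among earlier lines (1.42). For GABPA it turned to 1.08 (500 bp), 1.10 (second list), 1.16 (earlier lines) and 1.13 (width), and for ELF1 to 0.830 (earlier lines). To the nearest of all ETS1 windows in an interval, chosen after seeing the data, it was 0.946 for GABPA, 1.46 for ELF1 and 2.74 for ELK4, with no call changed. The cause of these changes was not tested. Depth is unknown, with 1 sample per group, and no replicate could be left out. The settings listed for transcription start sites and motifs were not run.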

Other observations

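Sites where 2 of the other ETS factors shared bases were set against the ETS1 lists. GABPA and ELF1 windows shared bases at 133 sites, of which 129 (97.0%) met both DU145 ETS1 lists, 2 the first list only and 2 neither. GABPA and ELK4 did so at 170 sites, with 161 (94.7%) in both lists, 5 in the first only, 1 in the second only and 3 in neither. ELF1 and ELK4 did so at 25, with 23 (92.0%) in both, 1 in the first only and 1 in neither. Of all peaks in each list, whether or not another factor was there, 93.1% of GABPA, 89.1% of ELF1 and 79.2% of ELK4 peaks lay in ETS1 regions present in both lists. The shares at shared sites are near the GABPA value, and no difference was tested.

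The first 50 lines of each list met multi-factor regions to different degrees. It was 25 for ELF1 (50%, against 53.9% of the whole list), 14 for ELK4 (28%, against 51.3%) and 12 for GABPA (24%, against 11.3%). It was 9 for the second ETS1 list (18%, against 3.09%), 3 for JUND (6%, against 1.61%) and 1 for PANC1 ETS1 (2%, against 4.4%). These differences were not tested. For ELK4, 34 of these 50 lines lay in any ETS1 region, against 45 for ELF1 and 50 for GABPA.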
